A study of Homo sapiens with 4 samples.

Results

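The genes described here form the cell's defence against oxidants: the NRF2 pathway with its target enzymes, the glutathione and thioredoxin systems, and the enzymes that remove peroxide and superoxide. They were chosen by name, as 42 gene symbols, and 38 of them had a probe set among the 17687 named genes on the arrays. AKR1B1, PRDX5, SOD2 and FTH1 were not analysed here. Each of the 38 genes was read from 1 probe set, and all 38 passed the filter on low values, which kept 12381 genes for the tests. The RNA came from established human liver cancer lines, Li-7 in one arm and HEP-G2 in the other. Every culture was transfected, either with an RNA that mimics miR-4730 or with a negative control oligonucleotide (negative control #1). The mimic was given at 3 nM with Lipofectamine RNAiMAX 24 h after seeding, and the dose of the control oligonucleotide is not given in the labels. Li-7 was grown in RPMI-1640 and HEP-G2 in DMEM, both with fetal bovine serum, so line and medium cannot be told apart. Each of the 4 groups was 1 Affymetrix array, with no replicate array in any group.

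NRF2, encoded by NFE2L2, is a transcription factor that KEAP1 holds in the cytoplasm and marks for destruction. Oxidants and electrophiles modify KEAP1, NRF2 then accumulates, pairs with a small MAF protein and binds the antioxidant response element near its target genes. Those targets make glutathione, supply NADPH, conjugate and export foreign compounds, reduce quinones and store iron. Glutathione peroxidases, peroxiredoxins and catalase break down peroxides, and the liver is rich in all of these systems.

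The oligonucleotide under study carries the mature miR-4730 sequence. It is shown with its seed, bases 2 to 8, in capitals, since the seed is the part of a microRNA that pairs with its targets. The sequence is that of RefSeq (GRCh38.p14, chr17:80419427-80419449, plus strand).
hsa-miR-4730: cUGGCGGAgcccauuccaugcca

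Promoters from RefSeq (GRCh38.p14), each running from 250 bases before to 50 bases after a gene's start, were found for 34 of the 42 genes. They were searched on both strands for the core of the antioxidant response element, TGACNNNGC. It lay in 10 of 47 promoters of these genes (21.3%), against 13.3% of all 35116 promoters in the table. A longer form, the same core followed by an A, overlaps it by construction and lay in 7 of the 47 (14.9%), against 3.18% of all. The 9 genes with the core were GCLM, GPX2, GSTO1, GSTP1, KEAP1, ME1, MGST1, PGD and TXNRD1. Sequence outside this window was not searched, nor were the 8 genes without a promoter in the table. Absence from these 9 therefore does not show that a gene lacks the element. Stretches from 6 of them are shown because these genes take different courses in the data below, and each runs 5′ to 3′ along its gene's strand with the match in capitals. A match on the opposite strand appears as its reverse complement.
GPX2 (chr14:64942839-64942887, minus strand): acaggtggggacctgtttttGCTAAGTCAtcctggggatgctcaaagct
GSTP1 (chr11:67583726-67583774, plus strand): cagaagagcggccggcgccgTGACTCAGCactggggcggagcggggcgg
ME1 (chr6:83431160-83431208, minus strand): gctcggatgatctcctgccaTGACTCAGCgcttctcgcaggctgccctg
GSTO1 (chr10:104254646-104254694, plus strand): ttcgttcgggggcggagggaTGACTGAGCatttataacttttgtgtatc
TXNRD1 (chr12:104286910-104286958, plus strand): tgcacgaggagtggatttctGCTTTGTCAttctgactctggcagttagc
GCLM (chr1:93909436-93909484, minus strand): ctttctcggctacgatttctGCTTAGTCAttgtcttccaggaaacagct
A match is a description of the letters and not a measured binding site. In the stretches of GSTP1 and ME1 the match also holds TGACTCA, the motif of AP-1 factors, so the motifs overlap there. TXNRD1 is shown at 1 of its promoters. ME1, GSTO1 and TXNRD1 also hold matches that are not shown. The match shown ended 114 bases before the start of GPX2, 58 before that of GSTP1, 129 before that of ME1 and 26 before that of GCLM. As given below, GPX2 and GSTO1 were higher in HEP-G2, GSTP1, ME1 and TXNRD1 were higher in Li-7, and the difference of GCLM between the lines did not pass.

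Values are on the deposited scale, which was read as log2, so that a difference of 1 is 2-fold. Its base and normalization are not stated in the sources used here. Below, background means the 95th percentile of 612 negative controls on the same array, which was 7.99 to 8.72. Between 34 and 36 of the 38 genes lay above it on each array. HMGA1, named as the target in the title of the series, was 14.93 on the Li-7 control and 10.91 on the Li-7 mimic array, and 14.79 and 11.61 in HEP-G2. Its mean difference was -3.59 (SE 0.29, 2 lines, limma adjusted p = 0.0241). Of 8 hepatocyte and liver tumour markers, 8 lay above background on both HEP-G2 arrays (11.19 to 17.23). In Li-7, 0 did so on the control array (4.23 to 7.30) and 1, SERPINA1, on the mimic array (8.40), so the Li-7 label is not borne out by ALB, AFP, APOA1, APOB, TTR, TF or FGB. Of 10 markers of other cell types, 0 lay above background in Li-7 and 1, ACTA2, in HEP-G2. The hepatocyte markers thus move with the line difference, their summed values being 43.1 and 45.1 in Li-7 against 117.5 and 121.6 in HEP-G2, and their part in the results below was not tested.

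**Figure D1:**
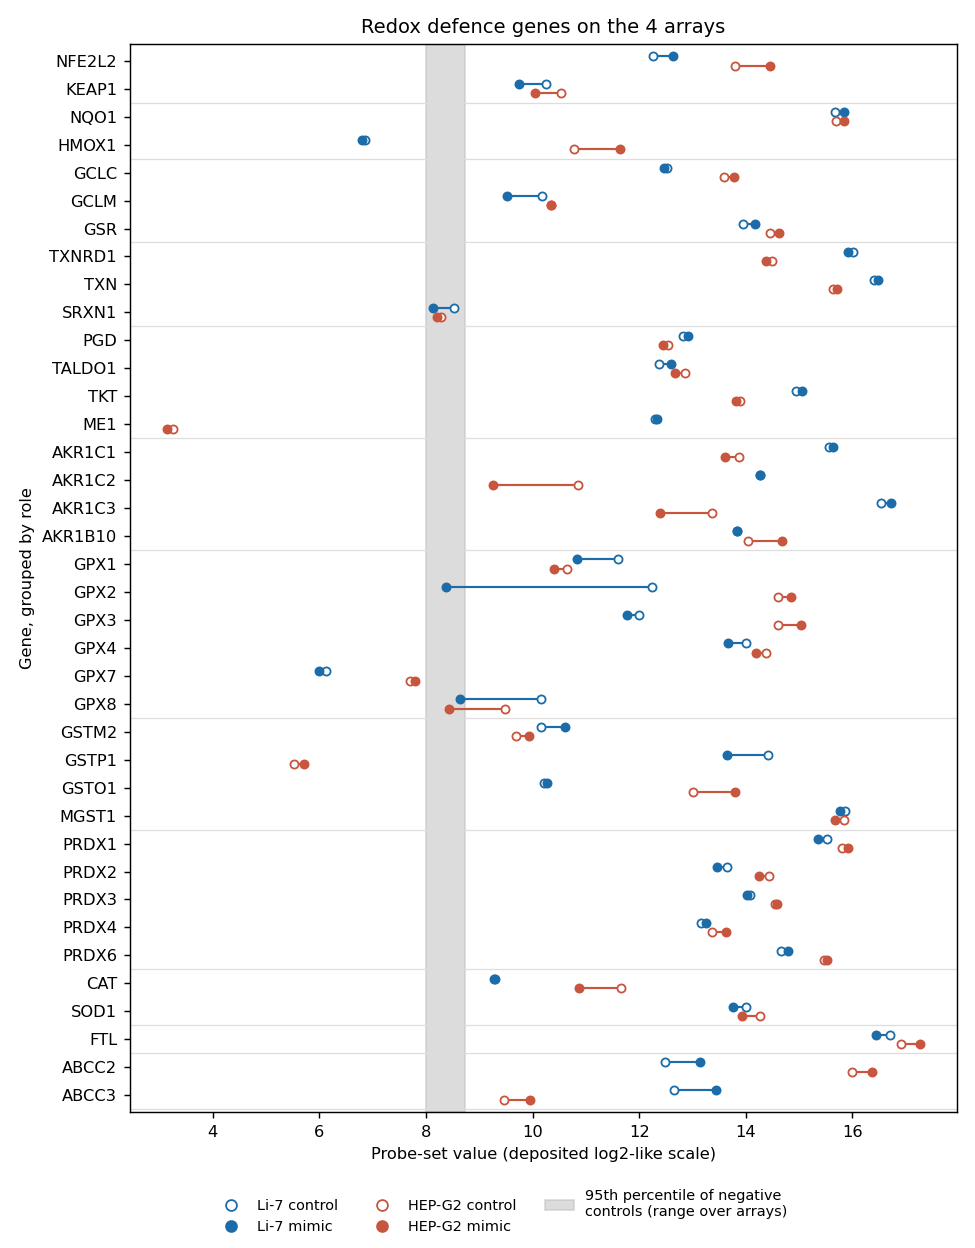
Probe-set values (x axis, deposited log2-like scale) of the 38 genes (y axis, grouped by role) on the 4 arrays, 1 point per array, open for control and filled for mimic. The grey band is the range over the arrays of the 95th percentile of the negative controls, 7.99 to 8.72. Most pairs of points lie close together within a line, GPX2 in Li-7 (12.25 to 8.37) is the widest pair, and ME1 and GSTP1 lie far left of the band in HEP-G2.

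The 38 genes differed more often between the lines than between control and mimic. In the line comparison, 20 passed limma's test at an adjusted p of 0.05, 11 of them higher in HEP-G2 and 9 higher in Li-7. That is 52.6% of the genes, against 44.9% of all 12381 genes tested, with 20.7% of all genes higher in HEP-G2 and 24.3% higher in Li-7. Line differences of at least 4-fold were seen for 10 of the 38 (26.3%), against 16.2% of all genes. Of the 38, 33 lay above background on all arrays, as did only 5552 of the 12381. Among these 5552 genes, 40.4% passed for the line difference and 7.04% differed by at least 4-fold. Shares of the 38 in this paragraph include HMOX1, ME1, GSTP1, SRXN1 and GPX7, which are not above background on all arrays. Leaving such genes out removes those with signal in a single line, so shares of the 38 and of the 5552 are not alike in kind. In the mimic comparison, 0 of the 38 passed limma's test, against 0.420% of all genes, 0.0808% higher and 0.339% lower with the mimic. At an unadjusted p under 0.05 there were 2 (GPX8 and ABCC3), against 2409 genes (19.5%) in all. The median of mimic minus control over the 38 genes was -0.03 for Li-7, against 0.02 for all genes tested, and 0.05 for HEP-G2, again against 0.02. The Li-7 median was 0.01 after quantile normalization and after cyclic loess, so its sign is not settled. Of the 38, 24 (63.2%) lay within 1.5-fold of control in both lines, against 54.7% of all genes and 59% of the 5552 above background on all arrays. At least 2-fold higher with the mimic were 0 of the 38 in either line, against 3.72% of all genes in Li-7 and 5.77% in HEP-G2. At least 2-fold lower were 2 in Li-7 (GPX2 and GPX8), against 4.12% of all genes, and 2 in HEP-G2 (AKR1C2 and GPX8), against 6.28%. For each gene the test has 1 residual degree of freedom, the disagreement between the lines, and no replicate cultures. To this limma adds a variance pooled over all genes (5.85 prior degrees of freedom), which weighs more than the gene's own. With an intensity trend 25 of the 38 genes passed for the line difference, GSR, FTL, GPX1, PRDX1 and PRDX3 being added. With an ordinary t statistic 0 of the 38 genes passed for the line difference, and 1 of all 12381 genes did.

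**Figure D2:**
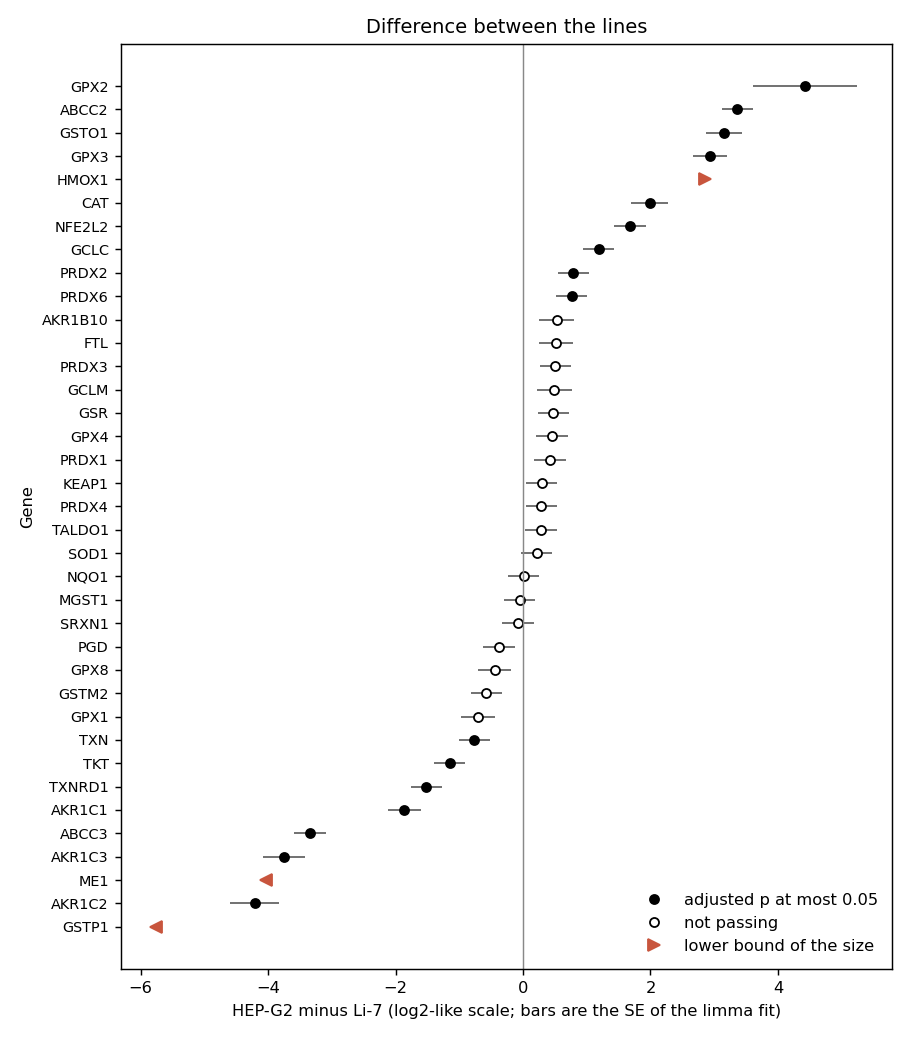
HEP-G2 minus Li-7 (x axis, log2-like scale) by gene (y axis), with bars for the SE of the limma fit over 4 arrays; filled points passed at an adjusted p of 0.05, and GPX7, under background throughout, is not drawn. Triangles are lower bounds on the size for genes under background in one line (HMOX1 at least 2.85, ME1 at least 4.03 and GSTP1 at least 5.75), whose place in the order is not known, and the bar of GPX2 (4.42, SE 0.82) is the widest.

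The factor and its sensor stood as follows. NFE2L2, which encodes NRF2, was 12.26 on the Li-7 control and 12.63 on the Li-7 mimic array, and 13.79 and 14.45 in HEP-G2. Both HEP-G2 arrays lay above both Li-7 arrays, and NFE2L2 was higher in HEP-G2 by 1.68 (SE 0.25, limma adjusted p = 0.00167), or 3.20-fold. In RNA from whole cultures, fewer cells expressing a gene and less RNA per cell cannot be told apart. KEAP1, the adaptor that brings NRF2 to its ubiquitin ligase, was 10.24 and 9.75 in Li-7 and 10.54 and 10.04 in HEP-G2. Its mimic value was 0.49 lower in each line, a mean of -0.49 (SE 0.24) that did not pass (limma adjusted p = 0.319). The mean for NFE2L2 was 0.51 (SE 0.25) and did not pass either (adjusted p = 0.313).

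NQO1, the quinone reductase that is a standard readout of NRF2, was nearly level on the 4 arrays, at 15.68 and 15.84 in Li-7 and 15.70 and 15.84 in HEP-G2. Its line difference was 0.01 (SE 0.24, limma adjusted p = 0.982). HMOX1, heme oxygenase, which breaks down heme, stood apart between the lines. It was 6.86 and 6.79 in Li-7, under background on both arrays, and 10.78 and 11.64 in HEP-G2. The line difference passed (limma adjusted p = 4.22e-05). Since the Li-7 values are only a bound, HMOX1 was at least 7.22-fold higher in HEP-G2. The bound sets the bright line's mean against the background level of the dim line's arrays. With the mimic its value was 0.86 higher in HEP-G2.

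Glutathione is made by the ligase whose catalytic subunit is GCLC and whose modifier subunit is GCLM, and GSR returns its oxidised form to the reduced one. GCLC was 12.52 and 12.47 in Li-7 and 13.58 and 13.78 in HEP-G2, higher in HEP-G2 by 1.19 (SE 0.25, limma adjusted p = 0.00758). GCLM was 10.18 and 9.52 in Li-7 and 10.34 on both HEP-G2 arrays. The lower value was thus that of the Li-7 mimic array, and the line difference of 0.49 did not pass (adjusted p = 0.191). GSR was 13.95 and 14.18 in Li-7 and 14.45 and 14.63 in HEP-G2, a line difference of 0.47 that did not pass (adjusted p = 0.157) but did with an intensity trend (0.0405). None of these 3 genes passed for the mimic, with mean differences from -0.33 to 0.20.

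In the thioredoxin system, TXNRD1, the reductase, was higher in Li-7. Its values were 16.01 and 15.91 in Li-7 against 14.50 and 14.38 in HEP-G2, a difference of -1.52 (SE 0.24, limma adjusted p = 0.00232). TXN, thioredoxin itself, was 16.40 and 16.48 against 15.64 and 15.72, also higher in Li-7 (-0.76, adjusted p = 0.0399). That call was lost after median centring (adjusted p = 0.0910), after cyclic loess (0.0506) and with treatment left out of the model (0.0806). SRXN1, which repairs overoxidised peroxiredoxins, lay near background, at 8.52 and 8.13 in Li-7 and 8.27 and 8.21 in HEP-G2. It lay above background on the 2 mimic arrays only, although its deposited value was not higher there. The background level itself was lower on those arrays (7.99 against 8.72 in Li-7, 8.20 against 8.35 in HEP-G2). Mimic and control lay within 0.39 of each other for each of these genes.

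NADPH is the reducing power of both systems, and the pentose phosphate enzymes PGD, TALDO1 and TKT and the malic enzyme ME1 take part in its supply. ME1 lay above background in Li-7 alone. Its values were 12.29 and 12.33 in Li-7 and 3.25 and 3.15 in HEP-G2, far under background on both HEP-G2 arrays. The difference passed (limma adjusted p = 1.64e-06), and against background ME1 was at least 16.4-fold higher in Li-7. TKT was 14.95 and 15.05 in Li-7 and 13.88 and 13.82 in HEP-G2, higher in Li-7 by 2.22-fold (-1.15, SE 0.25, adjusted p = 0.00832). PGD lay between 12.45 and 12.92 and TALDO1 between 12.36 and 12.85, and neither passed. With the mimic, each of these 4 genes stood 0.04 to 0.24 higher in Li-7, and none passed. In HEP-G2, PGD, TALDO1 and TKT stood at -0.18 to -0.07, but only 2 of these 3 were lower after quantile normalization and 1 after cyclic loess.

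The aldo-keto reductases reduce aldehydes, ketones and steroids. AKR1C1, AKR1C2 and AKR1C3, which follow each other on chromosome 10 in RefSeq's order of protein-coding genes, were all higher in Li-7. AKR1C3 was 16.54 and 16.73 in Li-7 against 13.37 and 12.40 in HEP-G2 (-3.75, SE 0.33, limma adjusted p = 0.000136). AKR1C2 was 14.27 on both Li-7 arrays against 10.85 and 9.27 in HEP-G2 (-4.21, SE 0.39, adjusted p = 0.000167). AKR1C1 was 15.57 and 15.64 against 13.87 and 13.61 (-1.86, SE 0.25, adjusted p = 0.00106). In HEP-G2 the mimic array was the lower one for all 3, by 1.59 for AKR1C2, 0.98 for AKR1C3 and 0.26 for AKR1C1, while in Li-7 the differences were -0.01, 0.19 and 0.07. The mean differences did not pass (limma adjusted p = 0.313, 0.564 and 0.878). These genes are close copies, so their probes may share signal and the values are uncertain as to which copy they measure. AKR1B10, often high in liver cancer, was 13.84 and 13.83 in Li-7 and 14.03 and 14.69 in HEP-G2, with no call in either comparison.

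**Figure D3:**
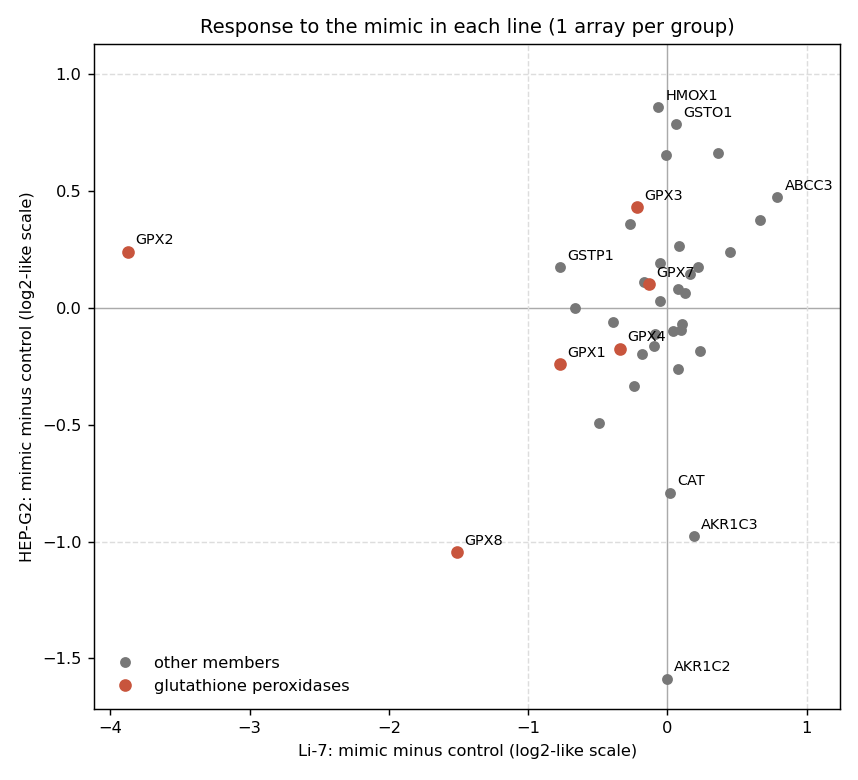
Mimic minus control in Li-7 (x axis) and in HEP-G2 (y axis), both on the log2-like scale, for the 38 genes, 1 point per gene, each from single arrays with no replicate. Dashed lines mark 2-fold. GPX2 lies alone at the far left (-3.87 in Li-7, 0.24 in HEP-G2), GPX8 is below -1 on both axes, and AKR1C2 is low on the HEP-G2 axis alone (-1.59).

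The widest difference between control and mimic among the 38 genes was that of a glutathione peroxidase. GPX2, an intestinal-type enzyme that reduces peroxides with glutathione, was 12.25 on the Li-7 control array and 8.37 on the Li-7 mimic array. In HEP-G2 it was 14.61 and 14.85. The Li-7 mimic array thus stood apart from the other 3, only just above its own background level of 7.99. The difference in Li-7 was -3.87, or 14.7-fold lower, rank 3 from the lowest of the 12381 genes, while HEP-G2 showed 0.24, rank 4243 from the highest. As single arrays these carry no test. Over both lines the mean of -1.82 had an SE of 0.82 and did not pass (limma adjusted p = 0.285). GPX2 was higher in HEP-G2 by 4.42 (SE 0.82, adjusted p = 0.00457), but by 2.37 on the control arrays alone and by 6.48 on the mimic arrays alone.

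The other 5 glutathione peroxidases all lay closer to control than GPX2 in Li-7, but only some of them did in HEP-G2. In Li-7 their differences ran from -1.51 to -0.13 with a median of -0.34, and GPX2 minus that median was -3.53. In HEP-G2 they ran from -1.04 to 0.43 with a median of -0.17, and GPX2 minus that median was 0.42. Those 5 include GPX7, which lay under background on all arrays. Without it GPX2 minus the median of the other 4 was -3.32 for Li-7 and 0.45 for HEP-G2. In HEP-G2, 3 of those 4 lay farther from control than GPX2 did, but GPX1 (-0.2416) was nearly level with GPX2 (0.2408) in size. That count was made on the deposited values only. Of the 5 genes above background, GPX2 included, 5 were lower with the mimic in Li-7 and 3 in HEP-G2, counts that were the same after quantile normalization, median centring and cyclic loess. Over the 5552 genes above background on all arrays, the median difference was 0.01 for Li-7 and -0.02 for HEP-G2. On the deposited values 0 of these peroxidases passed limma's test for the mimic. GPX2 was proposed for this comparison with its difference in Li-7 already known, so the contrast is a description.

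GPX8, a membrane enzyme of the endoplasmic reticulum, was lower with the mimic in both lines. It was 10.15 and 8.64 in Li-7 and 9.48 and 8.43 in HEP-G2, and both mimic arrays lay below both control arrays. Its mean difference of -1.28 (SE 0.26), 2.85-fold lower in Li-7 and 2.06-fold lower in HEP-G2, had the lowest p of the 38 genes but did not pass (limma adjusted p = 0.0851). It passed after quantile normalization (adjusted p = 0.0369), with the filter set at the median gene (0.0378) and with an intensity trend (0.0457). Over the 11 alternatives its adjusted p ran from 0.0369 to 1.

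GPX1, the cytosolic enzyme, was 11.61 and 10.84 in Li-7 and 10.64 and 10.40 in HEP-G2. GPX4, which reduces lipid peroxides in membranes and restrains ferroptosis, was 14.00 and 13.66 in Li-7 and 14.37 and 14.20 in HEP-G2. Both were lower with the mimic in each line, by a mean of -0.50 (limma adjusted p = 0.344) and -0.26 (adjusted p = 0.615), and neither passed. The line difference of GPX1 (-0.71, adjusted p = 0.0667) passed only with the filter at the median gene (0.0480) and with an intensity trend (0.0435). GPX3, the secreted plasma enzyme, was 11.99 and 11.78 in Li-7 and 14.60 and 15.03 in HEP-G2, higher in HEP-G2 by 7.63-fold (2.93, SE 0.27, adjusted p = 0.000177). GPX7 lay under background on all 4 arrays (5.99 to 7.80), so its call in the line comparison (adjusted p = 0.00154) gives no fold.

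**Figure D4:**
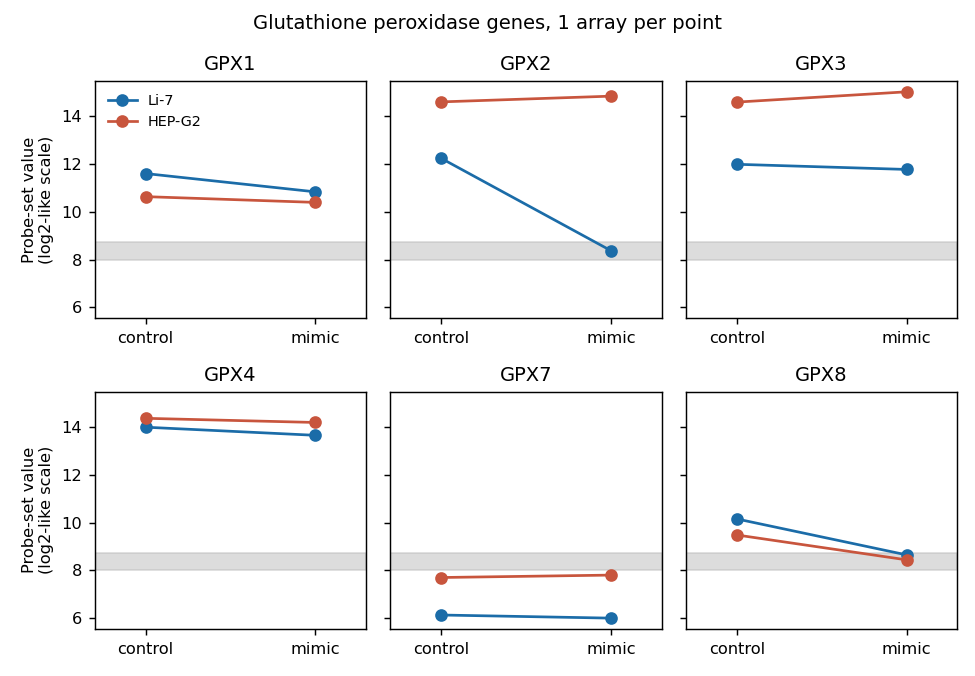
Probe-set values (y axis, log2-like scale) of the 6 glutathione peroxidase genes on the control and mimic arrays (x axis), 1 point per array, blue for Li-7 and red for HEP-G2. The grey band is the background level, 7.99 to 8.72 over the arrays. The Li-7 line of GPX2 drops from 12.25 to 8.37, the lines of GPX8 slope down in both cell lines, and those of GPX1, GPX3, GPX4 and GPX7 are nearly flat or slope less.

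Glutathione transferases attach glutathione to electrophiles. GSTP1, the pi class enzyme, was 14.41 and 13.64 in Li-7 and 5.53 and 5.71 in HEP-G2, under background on both HEP-G2 arrays. The difference passed (limma adjusted p = 3.32e-06), and against background GSTP1 was at least 53.9-fold higher in Li-7. GSTO1, the omega class enzyme, ran the other way, at 10.21 and 10.27 in Li-7 against 13.01 and 13.79 in HEP-G2, 8.92-fold higher in HEP-G2 (3.16, SE 0.28, adjusted p = 0.000140). MGST1, a membrane-bound transferase, lay between 15.68 and 15.86 on all arrays. GSTM2 lay between 9.69 and 10.61 and may share signal with the other mu class genes. None of the 4 passed for the mimic, where GSTP1 stood 0.77 lower in Li-7 and GSTO1 0.79 higher in HEP-G2.

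Peroxiredoxins use thiols in place of selenium to reduce peroxides, and their values lay close to control. Over the 5 genes measured, mimic minus control ran from -0.19 to 0.13 in Li-7 and from -0.20 to 0.26 in HEP-G2, all within 1.5-fold. PRDX1, the abundant cytosolic member, was 15.52 and 15.35 in Li-7 and 15.80 and 15.91 in HEP-G2. PRDX3, the mitochondrial member, was 14.09 and 14.03 against 14.55 and 14.58, and PRDX4, of the endoplasmic reticulum, 13.17 and 13.25 against 13.37 and 13.63. PRDX2 was higher in HEP-G2 by 0.79 (limma adjusted p = 0.0355) and PRDX6 by 0.77 (adjusted p = 0.0395). PRDX1 and PRDX3 passed only with an intensity trend (adjusted p = 0.0445 and 0.0322). The calls of PRDX2 and PRDX6 were lost with treatment left out of the model (adjusted p = 0.0812 and 0.0808).

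CAT, catalase, the peroxisomal enzyme that splits hydrogen peroxide, was 9.28 and 9.30 in Li-7 and 11.67 and 10.88 in HEP-G2. It was higher in HEP-G2 by 1.98 (SE 0.29, limma adjusted p = 0.00149), and its HEP-G2 mimic array lay 0.79 below the control. SOD1, which turns superoxide into peroxide in the cytosol, was 14.00 and 13.77 in Li-7 and 14.27 and 13.93 in HEP-G2, with no call. FTL, the ferritin light chain that stores iron, was 16.71 and 16.44 in Li-7 and 16.91 and 17.27 in HEP-G2. Its line difference of 0.52 did not pass (limma adjusted p = 0.166) but did with an intensity trend (0.0271). FTL has processed copies in the genome that its probes may also detect.

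The exporters of glutathione and glucuronide conjugates split between the lines. ABCC2, which faces the bile canaliculus, was 12.48 and 13.15 in Li-7 and 15.99 and 16.37 in HEP-G2, 10.3-fold higher in HEP-G2 (3.36, SE 0.25, limma adjusted p = 6.13e-05). ABCC3, which faces the blood side, was 12.66 and 13.45 in Li-7 and 9.47 and 9.94 in HEP-G2, higher in Li-7 by nearly the same amount (-3.34, SE 0.25, adjusted p = 6.44e-05). Each exporter was higher with the mimic in both lines, by 0.66 and 0.38 for ABCC2 and by 0.79 and 0.47 for ABCC3. The means of 0.52 and 0.63 did not pass (adjusted p = 0.308 and 0.234).

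Of the other genes of these pathways, taken from 4 lists of 108 symbols, 101 had a probe set and 97 were tested. None of the 97 passed limma's test for the mimic (0.420% of all genes did), and 51 passed for the line difference, 29 higher in HEP-G2 and 22 higher in Li-7. Some of those 22 lay under background on all arrays and are named below. Of all genes, 44.9% passed for the line difference, 20.7% higher in HEP-G2 and 24.3% higher in Li-7. At an unadjusted p under 0.05 for the mimic there were 3 of 14, 7 of 24, 6 of 40 and 7 of 19 genes in the order of the lists below, against 19.5% of all genes. Means given below for genes under background on some arrays rest in part on values that were not measured, and those genes are named.

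Among 14 tested partners and regulators of NRF2, the median mimic difference was 0.21, 2 were higher in HEP-G2 and 2 in Li-7 (28.6%, against 44.9% of all genes). SQSTM1, the autophagy receptor that can displace NRF2 from KEAP1, was 15.39 and 15.35 in Li-7 and 13.13 and 14.69 in HEP-G2, so that the HEP-G2 control array was the low one. BACH1, a repressor at antioxidant response elements, was 10.05 and 11.53 in Li-7 and 10.68 and 10.66 in HEP-G2. SESN1, a sestrin, under background in Li-7, had a mean difference of 0.71. PALB2 (-0.23), NFE2L1 (-0.10) and GSK3B (-0.04) had the lowest means, and none of the 6 passed (limma adjusted p from 0.195 to 0.962).

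Among 24 further glutathione and NADPH genes the median was -0.06, with 8 genes higher in HEP-G2 and 3 in Li-7 (45.8%, against 44.9% of all genes). CHAC2, which degrades glutathione, was 9.42 and 8.20 in Li-7 and 8.09 and 6.54 in HEP-G2, a mean of -1.38 (SE 0.25, limma adjusted p = 0.0738). Its HEP-G2 values lay under background. GGT1, which starts the breakdown of glutathione outside the cell, was 9.65 and 10.77 in Li-7 and 11.35 and 12.59 in HEP-G2, a mean of 1.18 (SE 0.24, adjusted p = 0.0877). ME3, a mitochondrial malic enzyme far under background in HEP-G2, was 1.29 higher with the mimic in Li-7. ANPEP, a peptidase under background on the Li-7 control array, was 0.72 higher with the mimic in HEP-G2. RPIA, of the pentose phosphate pathway and under background on the Li-7 control array, was at -1.39 in HEP-G2. SLC7A11, the cystine carrier, had a mean of -0.64 and lay above background throughout.

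Of 40 further NRF2 targets and conjugating enzymes, 27 were called for the line difference (67.5%, against 44.9% of all genes). Of these, 13 were higher in HEP-G2 and 14 in Li-7. The 14 include CBR3, ABCG2, AKR1C4 and GSTZ1, which lay under background on all arrays, so their calls give no measured difference. The median mimic difference of the 40 genes was 0.09. BLVRB, a biliverdin reductase, was 11.95 and 10.95 in Li-7 and 11.11 and 10.01 in HEP-G2, a mean of -1.05 (SE 0.24, limma adjusted p = 0.104). GSTCD, a gene with a transferase-like domain, had a mean of -0.79, with -0.36 in Li-7 and -1.22 in HEP-G2. TFRC, the transferrin receptor, was at -1.27 for Li-7 and -0.03 for HEP-G2. TXNIP, the thioredoxin inhibitor, was 8.46 and 9.96 in Li-7, the control array lying under background, and 9.38 and 9.44 in HEP-G2. SLC40A1, the iron exporter ferroportin, was at 0.97 and 0.48. AKR1D1, a steroid reductase, lay under background on all arrays but the HEP-G2 mimic array (10.02).

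Selenoproteins and their synthesis genes were taken as a list because most glutathione peroxidases carry selenocysteine. Of 19 tested, 6 were higher in HEP-G2 and 3 in Li-7 (47.4%, against 44.9% of all genes), and the median mimic difference was 0.13. The 3 include SELENON, which lay under background on all arrays, so its call gives no measured difference. SELENON had the lowest mean, at 8.43 and 6.83 in Li-7 and 6.69 and 6.31 in HEP-G2, all under background. SELENOW (-0.96, under background on the HEP-G2 mimic array) and SCLY (-0.80), which frees selenium from selenocysteine, came next. SELENOM (0.74) and SECISBP2 (0.64), a gene of selenoprotein synthesis, had means above 0. SELENOP, under background in Li-7, was 0.34 higher with the mimic in HEP-G2. None passed limma's test for the mimic (adjusted p from 0.122 to 0.232 for these 6).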

How the data were processed

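The 4 arrays, 1 per group, were grouped by their titles. The authors deposited a single table with 1 value per probe set and array, which was read as log2. The submitters' processing notes name only the vendor's software, Affymetrix Expression Console with Transcriptome Analysis Console. No source used here states the background correction, the normalization or the log base. Of 24351 probe sets, 17709 carried 1 gene name, 0 several and 6642 none. All 17709 identifiers matched RefSeq's gene table (GRCh38.p14), whose symbols were used. For a gene with several probe sets the brightest by mean over the arrays was taken, and genes at or above the 30th percentile of mean value (4.90) were tested. Mimic and line differences are coefficients of 1 linear model with line and treatment, fitted with limma 3.58.1 in R 4.3.3 over all 12381 genes, with Benjamini-Hochberg adjustment at 0.05 and 5.85 prior degrees of freedom. The procedure was tested on simulated data in which each gene's mimic effect was the same in both lines. That check therefore does not cover responses that differ between the lines. P-values reflect how far the lines disagree, mostly as pooled over all genes, since no group has a second culture. The number of arrays limits precision. Other scalings, filters, probe-set summaries and variance estimates were tried. The genes, lists and tests were chosen with earlier results of these data known. All 38 genes could be named, and of the other lists up to 3 genes per direction with the largest mean difference.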

Additional observations from a re-analysis of the deposited data

Results flagged for a closer look

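For 2 of the 38 genes the mimic array lay below control in one line and above it in the other, with a gap of at least 2-fold between the lines. GPX2 was -3.87 for Li-7 but 0.24 for HEP-G2, a Li-7 response minus HEP-G2 response of -4.12. For AKR1C3 the values were 0.19 for Li-7 and -0.98 for HEP-G2, a gap of 1.17. AKR1C2 had a wider gap of 1.58 but was not counted, since its deposited Li-7 difference was -0.005. After quantile normalization and after cyclic loess, 0 of the 4 aldo-keto reductases were lower in Li-7. Whether AKR1C2 is counted thus depends on the scaling. With 1 array per group, none of these differences between the lines was tested.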

How the results depend on the processing

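The model with line as a term compares mimic and control within each line. Of all 12381 genes, 52 passed for the mimic, and the count was 465 after quantile normalization (58.7% lower, against 80.8% as deposited), 28 after median centring, 23 after cyclic loess, 366 with the filter at the median gene, 200 with a filter on the negative controls, 411 with an intensity trend, 1 with an ordinary t statistic and 0 with line left out, which is the unpaired fit. The members' count of 0 became 1 (GPX8) after quantile normalization, with the filter at the median gene and with the trend. For the line difference the ordinary t statistic passed 0 members and 1 of all genes, against 20 and 5563. Members at least 2-fold lower in HEP-G2 numbered 1, not 2, after quantile normalization and cyclic loess. At 1.5-fold, 2 members were higher and 5 lower in Li-7, and 4 higher and 4 lower in HEP-G2. Leaving out GPX7, chosen after seeing the data, moved GPX2 minus the median of the other peroxidases from -3.53 to -3.32 in Li-7. For the line difference, 25 members passed with the trend. Over the scalings GPX2 in Li-7 ran from -3.91 to -3.84. Median centring moved the median line difference of all genes from -0.03 to 0.15. No called line difference of a member changed sign under the alternatives run. Values near the negative controls limit what can be read of SRXN1, GPX7 and GPX8, and of HMOX1 in Li-7 and ME1 and GSTP1 in HEP-G2.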

Other observations

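Chosen after their values were seen, several genes of the neighbouring lists also differed widely between the lines. GSTA1 and GSTA2, alpha class glutathione transferases typical of hepatocytes, lay under background in Li-7 (4.24 to 4.91) and between 10.56 and 11.11 in HEP-G2. These are close copies, and which copy the probes measure is uncertain. SELENOP, the secreted selenium carrier made by the liver, was 6.61 and 7.70 in Li-7, under background, and 16.12 and 16.46 in HEP-G2. ME3 ran with ME1, at 9.94 and 11.24 in Li-7 and, under background, 2.96 and 3.79 in HEP-G2. GSTM3, a mu class transferase, was 13.13 and 13.21 in Li-7 and 8.81 and 8.95 in HEP-G2.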
